A study of Mus musculus with 71 samples.

Results

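The late step of NFIA-positive p2 progenitors was measured in 5 of the series' 71 libraries: WT p2 NFIAp on day 11 (replicates 1, 2 and 3) against WT p2 NFIAp on day 9 (replicates 1 and 3). The libraries were taken by their labels. By label, genotype (WT), population (p2) and NFIA fraction (NFIAp, read here as cells sorted with NFIA protein) stayed the same and the day of differentiation changed. The labels do not say whether the days also differ in batch. The library labelled as replicate 2 of WT p2 NFIAp on day 9 was left out because its values lie with those of pMN, and it was added back as an alternative.

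All libraries come from cultures in which mouse ES cells were turned into progenitors of the ventral spinal cord, under retinoic acid and then the Smoothened agonist SAG, and collected on days 5, 7, 9 and 11. They were made by CaTS-ATAC, in which cells are fixed, transposed, stained for proteins inside the cell and sorted, so that open chromatin is read in 1 progenitor population at a time. The deposited table gives normalised reads in 155738 numbered intervals, of which 155734 were tested. It pairs the intervals with neither positions nor genes, so results are given for interval numbers and for sets of intervals. Other groups of the series were set beside the p2 NFIAp libraries. WT pMN NFIAp was sampled on day 9 (3 libraries) and day 11 (3 libraries). MUT p2 NFIAn was sampled on day 9 (2 libraries) and day 11 (3 libraries), and which gene is mutated is not stated in the labels. WT p2 NFIAn was sampled on day 5 (2 libraries), day 7 (3 libraries) and day 9 (3 libraries), and WT pMN NFIAn on day 9 (2 libraries) served to choose marks of the populations. No MUT library is NFIAp and no WT library of day 11 is NFIAn, so genotype and NFIA fraction change together wherever MUT is compared with NFIAp cells.

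In the ventral neural tube, progenitor domains are set out along the dorsoventral axis by Sonic hedgehog. The p2 domain first makes V2 interneurons and later astrocytes, and the neighbouring pMN domain first makes motor neurons and later oligodendrocyte precursors. NFIA is a transcription factor that progenitors in many domains begin to make around the time when neurogenesis gives way to gliogenesis. In ATAC-seq, a transposase cuts and tags DNA that is not covered by nucleosomes, so more reads in an interval mean more accessible chromatin there, or a larger share of cells in which it is accessible, and these cannot be told apart in a sorted bulk library.

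The 5 libraries were of similar depth. Reads recovered in the intervals were 25475308 and 24643303 on day 9 and 30763394, 25425271 and 31315134 on day 11, within the 20034731 to 31315134 of all libraries. The median interval had a mean of 31.7 normalised reads over the 5 libraries, at which counting error alone is 17.8%, and reads are not all independent molecules. After the deposited scaling the totals still differed, at 23934500 and 23079300 on day 9 and 26682500, 26542200 and 25804000 on day 11. The day 9 libraries differed more from each other (root mean square difference 0.58 on the log2 scale) than the day 11 libraries did (0.38 to 0.44). Day 9 replicate 1 lay nearer to day 11, with a mean correlation of 0.93 across intervals, against 0.89 for replicate 3. Nothing in the labels says that replicates came from separate cultures, so the p-values measure the spread between libraries, which may be technical.

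The labels were checked on intervals that mark the populations, chosen in libraries outside the 5. For day 9, 7549 intervals were higher in WT NFIAn p2 than in WT NFIAn pMN and 1668 were higher in pMN, together 5.92% of those tested. Over the p2-higher intervals the median level, as log2(normalised reads + 5), was 5.09 and 5.24 in the NFIAp p2 libraries used, 5.71 to 6.04 in NFIAn p2 and 4.49 to 4.78 in NFIAp pMN. Over the pMN-higher intervals it was 4.78 and 4.73 in the libraries used, 4.33 to 4.42 in NFIAn p2 and 5.66 to 5.92 in NFIAp pMN. The day 9 NFIAp p2 libraries lay between these groups on both lists. The lists were chosen for the difference between NFIAn p2 and NFIAn pMN, so the NFIAn levels are extreme by choice and a library outside the choice would be nearer the middle. On the lists of day 11 below, the MUT p2 levels may likewise be extreme by choice. The left-out replicate 2 had 4.63 and 5.63, at the level of pMN. For day 11, 4490 intervals were higher in MUT p2 than in MUT pMN and 1031 were higher in pMN, together 3.55%. WT p2 stood at 5.40, 5.41 and 5.17 on the p2-higher intervals, above WT pMN (4.40, 4.29 and 4.24) and below MUT p2 (6.03, 5.92 and 5.53). On the pMN-higher intervals WT p2 stood at 4.87, 4.63 and 4.53, below WT pMN at 6.15, 5.88 and 5.66. The part of these levels in the results below was not tested.

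The first question is how open chromatin changes between day 9 and day 11 when both days are NFIA-positive. Accessibility mainly rose. Of the 155734 intervals, 18265 rose (11.7%) and 6072 fell (3.9%), together 24337 or 15.6% (called by limma where the change was 1 or more on the log2 scale and the adjusted p, after Benjamini and Hochberg, was below 0.05). The rises were also larger than the falls. A change of 2 or more on that scale was found for 4390 rises and 89 falls, and one of 3 or more for 787 rises and 3 falls. The number of large falls depended on the pseudocount, the 5 added to each value before taking log2. Falls of 2 or more numbered 1055 with a pseudocount of 1 and 2206 by edgeR. With a pseudocount of 1 the median rise was 1.71 and the median fall -1.40. The median change over all intervals was -0.01, so the imbalance lay in the tail of large changes.

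The balance between rises and falls, though not the excess of rises, depended on the scale, the pseudocount and the day 9 libraries. Rises made up 75.1% of the calls with the deposited scaling. With equal library totals, which moved the median of all intervals to -0.15, 15071 rose and 9066 fell (62.4% rises), and with quantile normalization, which moved it to -0.11, 14890 rose and 7731 fell (65.8% rises). With a pseudocount of 1, 18847 rose and 11305 fell (62.5% rises), and with one of 20, 11028 rose and 994 fell (91.7% rises). On the recovered reads edgeR called 19344 rises and 13075 falls. Without day 9 replicate 1 the falls went to 11064 and the rises to 22805, and without day 9 replicate 3 they were 4583 and 13466.

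The intervals that rose were mostly weak on day 9. Their median was 21.6 normalised reads on day 9 (interquartile range 9.85 to 54.4) and 83.3 on day 11 (39.6 to 193). On day 9, 4806 of them (26.3%) had fewer than 10 normalised reads, and on day 11 only 33 did. Those with more than 100 went from 2518 (13.8%) to 8035 (44%), and 167 passed from under 10 to over 100. The median change was 1.50 on the log2 scale, with an interquartile range of 1.21 to 1.97. The share of all normalised reads that lay in these intervals was 5.02% and 3.11% on day 9 and 13.3%, 11.7% and 10.5% on day 11. Day 9 replicate 1 thus already held more of its reads there than replicate 3 did.

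The intervals that fell were of middling level and most ended near the lower limit of what was read. Their median went from 30.9 normalised reads (18.3 to 56.8) to 9.78 (4.98 to 20.4), a median change of -1.18. Fewer than 10 normalised reads were found for 261 of them on day 9 and for 3084 (50.8%) on day 11. Together they held 1.23% and 1.56% of the reads on day 9 and 0.426%, 0.435% and 0.467% on day 11. These levels describe the libraries that chose the intervals and are no test.

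All 3 day 11 libraries lay above both day 9 libraries in 18146 of the rises (99.3%) and below them in 5695 of the falls (93.8%). Over all intervals tested the same was found for 27.4% upwards and 22.9% downwards. Since separation enters into the choice of the intervals, nothing is read from the difference.

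**Figure D1:**
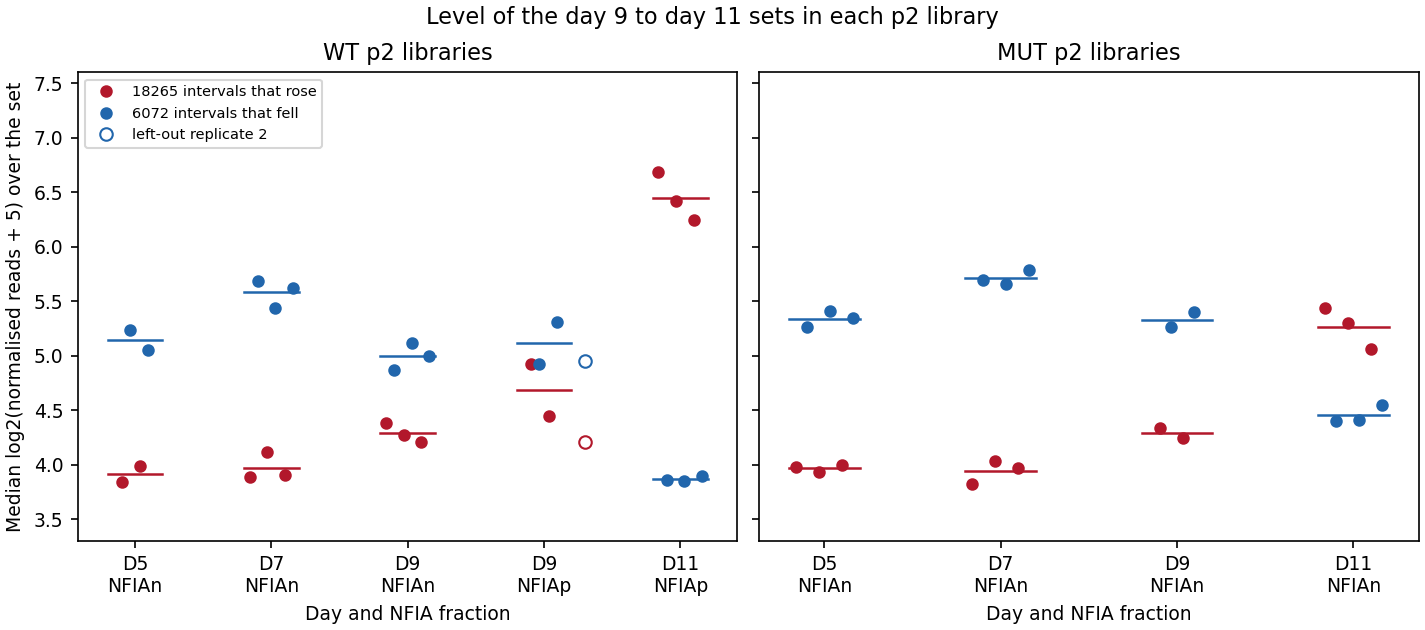
Each point is 1 p2 library, and its height is the median of log2(normalised reads + 5) over the intervals that rose (red) or fell (blue) from day 9 to day 11 in WT p2 NFIAp, by day and NFIA fraction in WT and in MUT. The rise set stands at 6.25 to 6.69 in the WT day 11 libraries and at 5.06 to 5.43 in MUT, short lines are group means and the open points are the left-out replicate 2.

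The rise set was flat before day 9 in p2 libraries that took no part in its choice. Its median level in log2(normalised reads + 5) was 3.84 and 3.99 on day 5 and 3.88, 4.11 and 3.90 on day 7, and the days overlap. In the NFIAn fraction of day 9 it was 4.38, 4.27 and 4.21, above every library of days 5 and 7. In the NFIAp fraction of day 9 it was 4.92 and 4.45, and the left-out replicate 2 had 4.21. On day 11 it reached 6.69, 6.42 and 6.25. The step from the NFIAp fraction of day 9 to day 11 is the one that chose the set, so its size is a description.

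The fall set had a different course. Its median was 5.23 and 5.05 on day 5, 5.69, 5.44 and 5.62 on day 7, 4.87, 5.12 and 5.00 in the NFIAn fraction of day 9 and 4.92 and 5.31 in the NFIAp fraction. It ended at 3.86, 3.85 and 3.90 on day 11. Day 7 was therefore the highest day, and the 3 day 11 libraries lay below every earlier p2 library.

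The largest single rises started from a handful of reads. Interval_49651 had 8.46 and 3.75 normalised reads on day 9 and 1047, 788 and 538 on day 11, a change of 6.15 ± 0.35 (SE) on the log2(value + 5) scale (limma adjusted p = 3.43e-21). Interval_22624 had 3.76 and 2.81 on day 9 and 510.0, 329 and 266 on day 11. Interval_141170 had 4.70 and 1.87 on day 9 and 373, 315 and 234 on day 11. In each of these intervals the days were far apart, and the pseudocount of 5 makes the stated changes smaller than the ratios of the reads.

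The other 5 largest rises had the same form. Interval_145071 had 11.3 and 4.68 normalised reads on day 9 and 510.0, 424 and 436 on day 11. Interval_70379 had 8.46 and 6.56 on day 9 and 571, 381 and 314 on day 11. Interval_19365 had 11.3 and 3.75, then 535, 369.6 and 291. In these intervals, too, day 9 replicate 1 was higher than replicate 3. Interval_56483 had 8.46 and 3.75 on day 9 and 485, 293 and 296 on day 11. Interval_143923 had 15.0 and 4.68, then 600, 391 and 311. Across the 8 the changes were 4.93 to 6.15, with 1.87 to 15.0 normalised reads on day 9 and 234 to 1047 on day 11. None of the 8 was called between day 5 and day 9 in NFIAn p2, a step in which 27.6% of all intervals were called. Their means there were at most 7.25 normalised reads on day 5 and 7.72 on day 9. With so few reads and a pseudocount of 5 a call was hard to reach, so nothing is read from this.

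**Figure D2:**
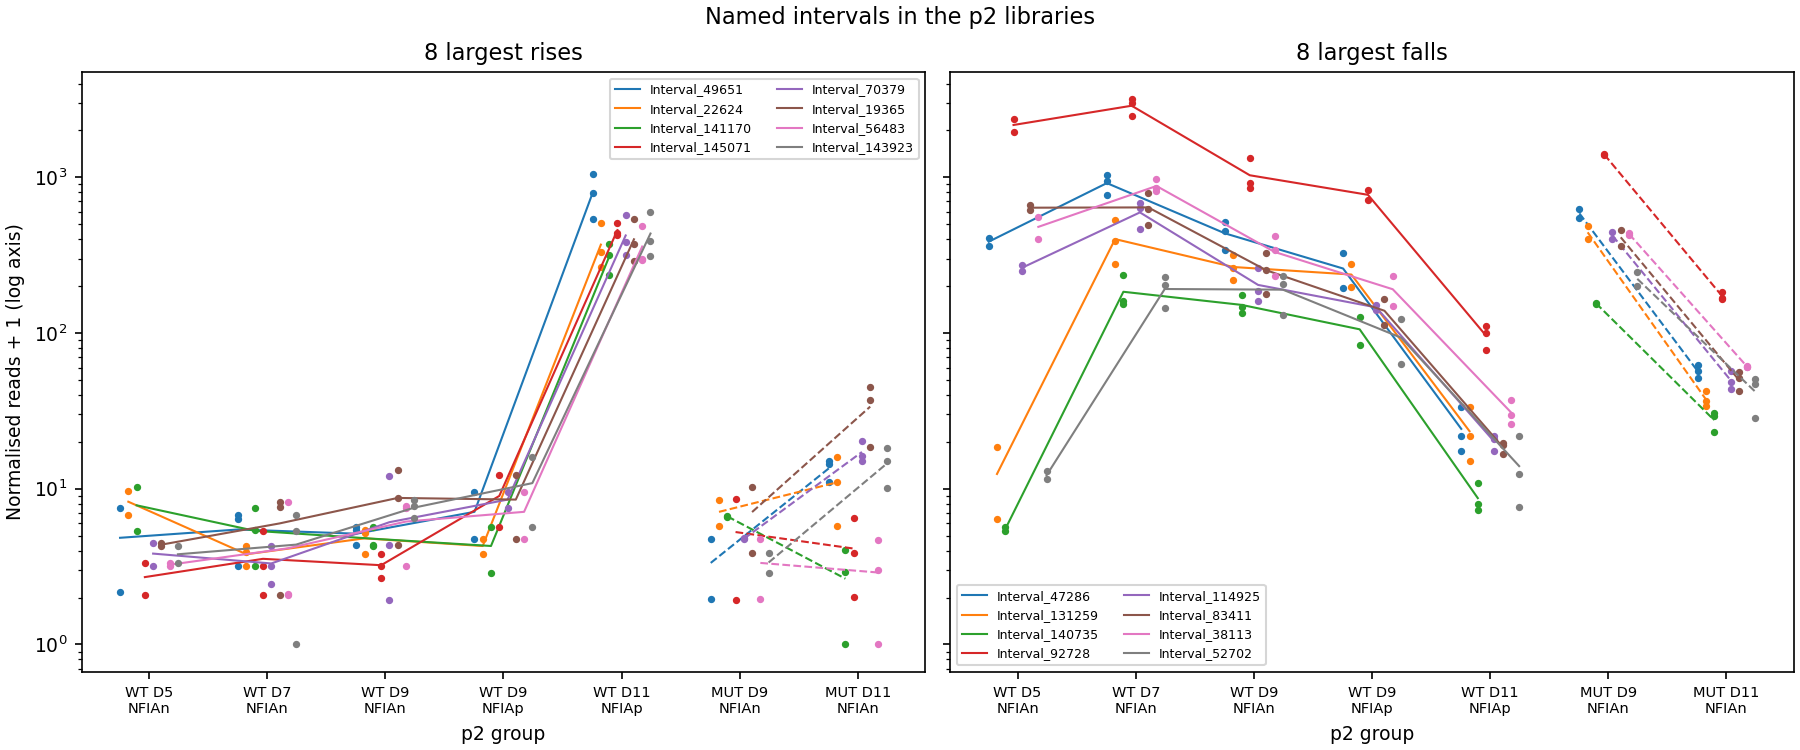
Normalised reads plus 1 on a log axis in each p2 library for the 8 largest rises (left) and the 8 largest falls (right), by p2 group, with points for libraries and lines joining group means, solid for WT and dashed for MUT. The 8 rises lie at 15.0 or below on day 9 in the NFIAp libraries and at 234 or above on day 11, while the 8 falls drop in both genotypes.

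The largest falls ran from well-read intervals to weak ones. Interval_47286 had 193 and 324 normalised reads on day 9 and 20.8, 32.4 and 16.5 on day 11, a change of -3.21 ± 0.31 (SE; limma adjusted p = 7.13e-13). Interval_92728, the most accessible of them, had 711 and 829.8 on day 9 and 98.9, 109.6 and 76.6 on day 11 (change -2.96 ± 0.18). Interval_131259 had 196 and 276 on day 9 and 20.8, 32.4 and 14.0 on day 11. In each of the 3, every day 11 library lay below both day 9 libraries, as the rule for naming required.

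Interval_140735 went from 82.7 and 126 to 6.94, 6.26 and 9.89, and Interval_52702 from 62.0 and 123 to 20.8, 11.5 and 6.59. Interval_114925 had 150.3 and 139.5 normalised reads on day 9 and 16.5, 20.9 and 19.8 on day 11. Interval_83411 went from 111 and 165 to 18.2, 18.8 and 15.7, and Interval_38113 from 148 and 231 to 28.6, 25.1 and 36.3. Over the 8 the change was -3.21 to -2.44. Day 9 replicate 1 lay below replicate 3 in each of the 8 except Interval_114925.

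The second question is whether the intervals of the late step were already changing in p2 in the NFIAn fraction, and the steps up to the NFIAn fraction of day 9 share no library with it. The rise set hardly moved from day 5 to day 7. There 767 of its 18265 intervals were higher (4.2%, against 9.59% of all intervals) and 688 lower (3.77%, against 5.49%), and the median change was 0.02. From day 7 to day 9, 1969 were higher (10.8%, against 4.08% of all) and 103 lower (0.564%, against 6.1%), with a median of 0.28, where the median of all intervals was 0.01. Between day 5 and day 9, 14240 of the set's intervals were not called in either direction, beside 112724 of the 155734 tested, a share near the background. Of the rest, 3311 had risen (18.1% of the set, against 14.3% of all) and 714 had fallen (3.91%, against 13.3% of all).

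The fall set had been more active. From day 5 to day 7, 1704 of its 6072 intervals rose (28.1%, against 9.59% of all) and 434 fell (7.15%, against 5.49% of all). The median change was 0.33. From day 7 to day 9 in the NFIAn fraction, 1726 fell (28.4%, against 6.1% of all) and 62 rose (1.02%, against 4.08% of all). The median change was -0.60. Between day 5 and day 9 as a whole, 1117 had risen (18.4%, against 14.3% of all) and 1793 had fallen (29.5%, against 13.3% of all).

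Both courses are seen among the named falls. Interval_131259 had 17.4 and 5.43 normalised reads on day 5, 534, 389 and 276 on day 7 and 217, 260.3 and 316 in the NFIAn fraction of day 9 before it fell. Its change from day 5 to day 7 was 4.68. Interval_140735 changed by 4.28 and Interval_52702 by 3.57 over the same 2 days. Interval_92728 instead had 2375 and 1956 on day 5, 3004, 2476 and 3157 on day 7 and 851, 1322 and 913 in the NFIAn fraction of day 9. It changed by -1.50 from day 7 to day 9, ahead of the late step. Of the 8, 5 rose from day 5 to day 7 and 5 fell from day 7 to day 9.

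Some intervals turned back, with 714 of the rise set lower from day 5 to day 9 and 1117 of the fall set higher. That is 3.91% against 13.3% of all, and 18.4% against 14.3% of all. Examples among the rises follow. Interval_35506 fell from 25.6 and 23.9 normalised reads on day 5 to 7.45, 12.1 and 3.37 in the NFIAn fraction of day 9 (-1.29). It then had 34.8 and 10.3 in the NFIAp fraction of day 9 and 499.6, 452 and 319.7 on day 11 (4.09). Interval_118950 had 39.5 and 33.6 on day 5, 68.2, 74.5 and 66.3 on day 7 and 12.1, 12.1 and 15.1 in the NFIAn fraction of day 9. It had 82.7 and 27.2 in the NFIAp fraction and 934, 945 and 810.0 on day 11 (4.08). By contrast Interval_101069 and Interval_138822 rose in both stretches, by 1.01 and 1.14 from day 5 to day 9 and by 4.19 and 3.87 in the late step.

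**Figure D3:**
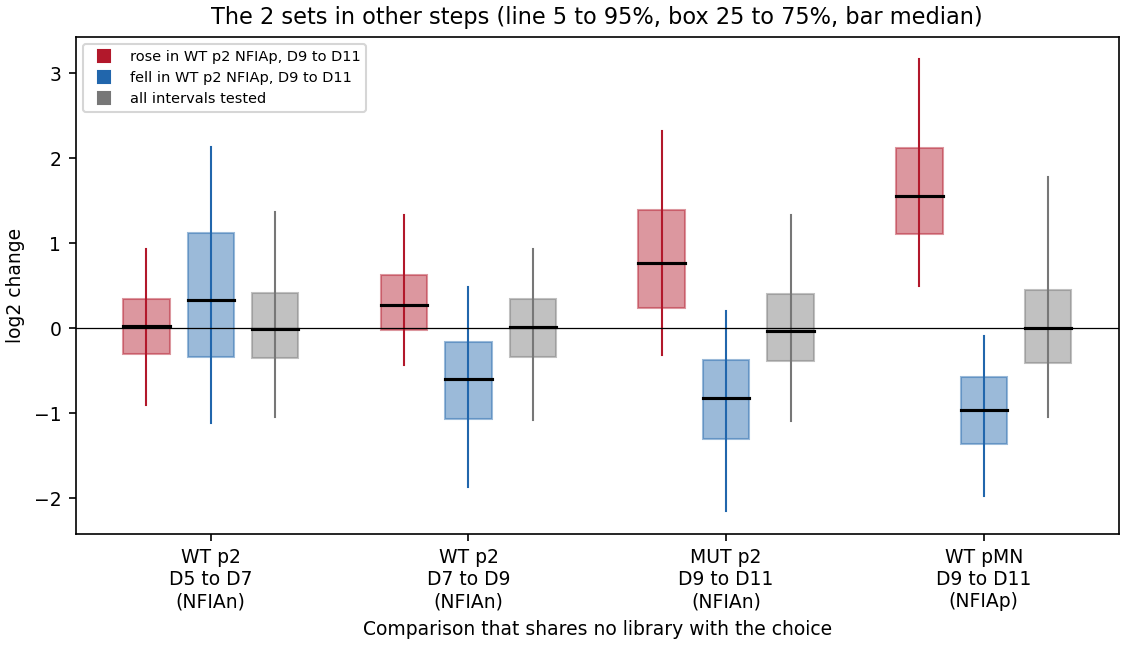
Change on the log2 scale of the rise set (red), the fall set (blue) and all intervals tested (grey) in 4 steps measured in other libraries, with the bar at the median, the box over the interquartile range and the line over all but the outer 5% on each side. The rise set has medians of 0.02, 0.28, 0.77 and 1.56 and the fall set 0.33, -0.60, -0.82 and -0.96 in the steps from day 5 to 7 and 7 to 9, in MUT p2 and in WT pMN.

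On day 9 the fractions themselves can be set beside the late step, but the NFIAp libraries of day 9 enter both, so the values below support nothing. NFIAp minus NFIAn p2 gave 5664 higher and 4716 lower intervals, 6.67% of those tested. The median difference was 0.38 in the rise set and 0.09 in the fall set. With the left-out replicate 2 added, 1781 were higher and 4058 lower.

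The third question is whether pMN, the neighbouring domain, takes the same step in NFIA-positive cells. These 6 libraries share none with p2, but libraries of the 2 populations with the same replicate number may not be independent. Their deviations from the group means correlated at 0.32 and 0.28 on day 9 and at 0.28, 0.07 and 0.24 on day 11. In pMN 20276 intervals rose and 8691 fell from day 9 to day 11, 18.6% of those tested. Of the p2 rises, 14651 also rose in pMN, where 13% of all intervals rose. That is 80.2% of the p2 rises and 72.3% of the pMN rises. Of the p2 rises, 1 fell in pMN (0.00547%, against 5.58% of all). The p2 rise set had a median change of 1.56 in pMN, against 1.50 in p2 and near 0 over all intervals. Of the p2 falls, 2900 also fell in pMN, which is 47.8% of the p2 falls and 33.4% of the pMN falls, where 5.58% of all intervals fell. Their median change in pMN was -0.96.

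The change in pMN grew with that in p2. The p2 rises of 1 to 1.5 on the log2 scale had a median of 1.19 in pMN, those of 1.5 to 2 had 1.69, those of 2 to 3 had 2.38 and those over 3 had 3.48. The share that also rose in pMN went from 65.4% through 91.5% and 98.9% to 100% of the 787 largest. For the falls the medians in pMN were -0.89, -1.45 and -2.10 in the first 3 ranges, and 3 intervals fell by more than 3. Across the 155734 intervals, which share depth and are not independent, the changes in p2 and pMN correlated at r = 0.84. Without day 9 replicate 1, 29.4% of the larger p2 fall set of 11064 fell in pMN, with a median of -0.65, and the 675 falls beyond 2 on the log2 scale had a median of -0.67 there.

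**Figure D4:**
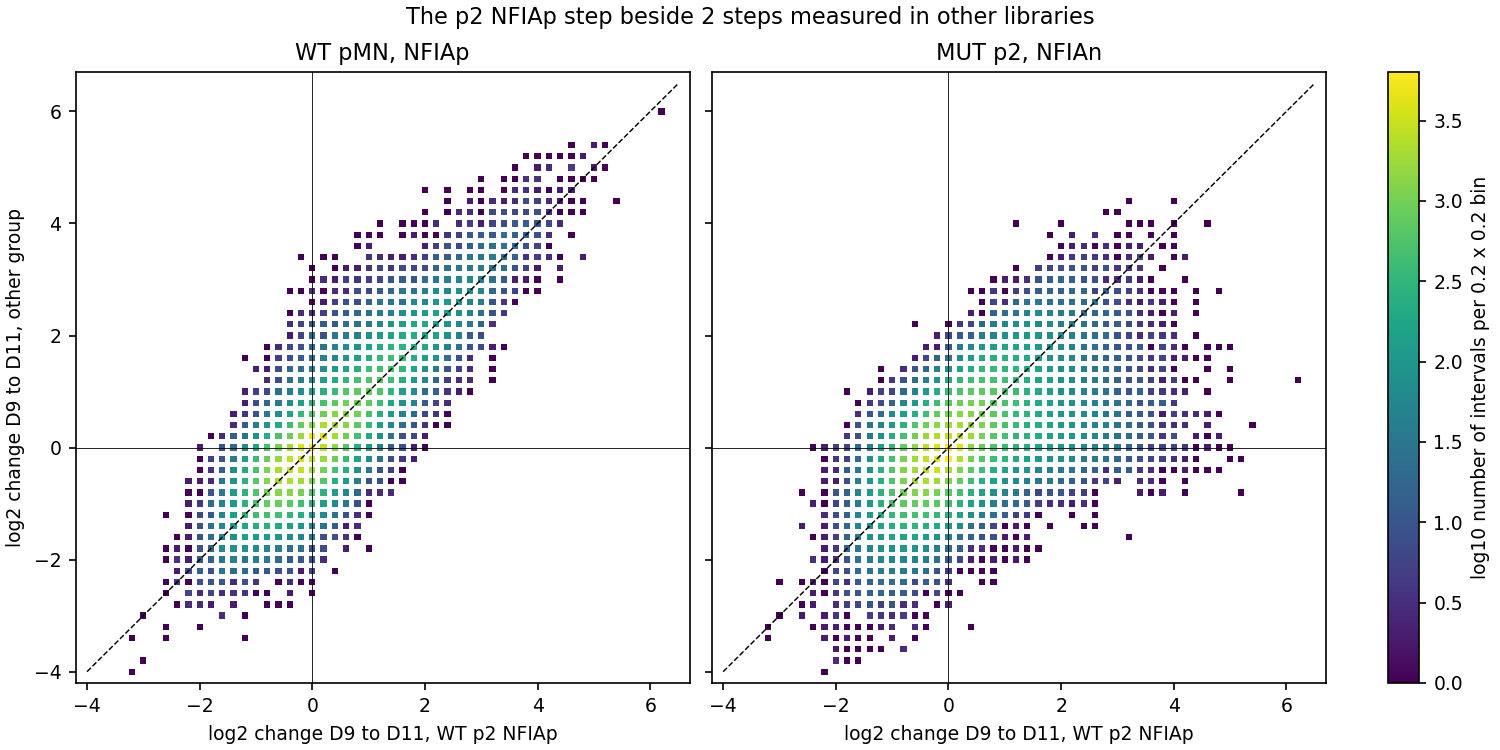
Number of intervals (log10 colour scale, bins of 0.2 by 0.2) by their log2 change from day 9 to day 11 in WT p2 NFIAp (horizontal) and in WT pMN NFIAp or MUT p2 NFIAn (vertical). The WT populations lie along the diagonal (r = 0.84), while many intervals that rose in WT p2 stay near 0 in MUT p2 (r = 0.60).

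All 8 of the largest p2 rises and all 8 of the largest falls were called in the same direction in pMN. Interval_49651 had 27.1, 4.23 and 7.14 normalised reads in pMN on day 9 and 1363, 1050.4 and 767 on day 11, a change of 6.08 beside 6.15 in p2. Interval_92728 had 374, 858 and 701, then 37.7, 34.2 and 40.9, a change of -3.85 beside -2.96.

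Few intervals showed a difference between the steps that passed the test. The p2 step was larger in 851 and smaller in 653, together 1504 or 0.966% of the intervals, and 15374 had an unadjusted p under 0.05. The count and the balance of directions were unstable. The p2 step was larger in 588 and smaller in 852 with a pseudocount of 20, 278 and 408 with the left-out p2 library added, and 1083 and 1579 without p2 day 9 replicate 1. The total was 18 when only the groups compared were fitted and 686 with the left-out p2 library added. It was 2662 without p2 day 9 replicate 1, 686 without p2 day 9 replicate 3 and 733 without p2 day 11 replicate 2. Among the pMN libraries it was 2430, 785 and 672 without day 9 replicates 1, 2 and 3 in turn, and 734 without day 11 replicate 1. No number of intervals particular to p2 is therefore given, and a count this small does not show that the steps are alike.

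Interval_21183 had 1.88 and 0.94 normalised reads in p2 on day 9 and 175, 132 and 112 on day 11, and in pMN 10.7, 5.29 and 5.10, then 119.8, 96.4 and 70.6. Its p2 change of 4.48 exceeded the pMN change of 3.07 by 1.41 ± 0.37 (SE; limma adjusted p = 0.0384), and the call was lost under 12 alternatives. Interval_79937 rose by 3.33 in p2 and 1.70 in pMN. Interval_90184 fell by 2.21 in p2 and changed by -0.57 in pMN. Interval_70488 had 33.8 and 112 in p2 on day 9 and 9.54, 8.35 and 23.1 on day 11, while the pMN libraries held 8.72, 19.0 and 5.10, then 14.2, 12.4 and 5.57. It was low in the left-out p2 replicate 2 as well, at 8.29, so its day 9 level differed widely among the 3 libraries with that label.

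The fourth question is what the same days look like in MUT p2, which is NFIAn throughout. In MUT p2 14286 intervals rose and 9826 fell, 15.5% of those tested, nearly the share in WT p2 NFIAp. Of the WT rises, 7334 also rose in MUT, where 9.17% of all intervals rose. That is 40.2% of the WT rises and 51.3% of the MUT rises. Of the WT rises, 65 fell in MUT (0.356%, against 6.31% of all). The WT rise set had a median change of 0.77 in MUT and 6349 of its intervals (34.8%, against 58.8% of all intervals) changed by less than 0.5 there. Of the WT falls, 2387 also fell in MUT, where 6.31% of all intervals fell. That is 39.3% of the WT falls and 24.3% of the MUT falls. Of the WT falls, 3 rose in MUT (0.0494%, against 9.17% of all). The WT fall set had a median change of -0.82 in MUT. Without WT day 9 replicate 3, the shared rises were 4525 of 13466 and the shared falls 1590 of 4583. Across all intervals the changes correlated at r = 0.60.

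The levels were set side by side as well. Over the WT rise set the MUT p2 libraries had medians, in log2(normalised reads + 5), of 4.34 and 4.24 on day 9 and 5.43, 5.30 and 5.06 on day 11. The day 9 values lay within the range of WT NFIAn p2 on that day, and the day 11 values lay above every day 9 library and below every WT day 11 library. Over the WT fall set MUT p2 went from 5.26 and 5.40 to 4.40, 4.41 and 4.55. Again the day 11 levels did not reach those of WT (3.85 to 3.90). The WT day 11 libraries took part in choosing both sets and are extreme in them by choice, so the shortfall of MUT is no test.

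The MUT medians differed little between ranges of the WT rise with the deposited scaling and a pseudocount of 5. The WT rises of 1 to 1.5 had a median of 0.75 in MUT, those of 1.5 to 2 had 0.81, those of 2 to 3 had 0.78 and the 787 over 3 had 0.74. Between 38% and 42.7% of each range rose in MUT. For the falls the pattern differed, with MUT medians of -0.77, -1.20 and -1.90 in the ranges of 1 to 1.5, 1.5 to 2 and 2 to 3, of which 36%, 59.1% and 74.4% fell in MUT. The last of these rests on few intervals and on the day 9 libraries. For all 89 falls beyond 2 the MUT median was -1.90, it was -1.37 for 57 such falls without day 9 replicate 3, and it was -0.44 for the 675 found without day 9 replicate 1. For the rises the flat course also depended on the setting. The MUT median was 0.81 over all rises and 1.03 over those beyond 3 without replicate 1, and 0.62 and 0.49 without replicate 3. It was 1.05 and 1.19 for intervals with a mean of at least 30, and 0.81 and 0.92 with the left-out library added.

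**Figure D5:**
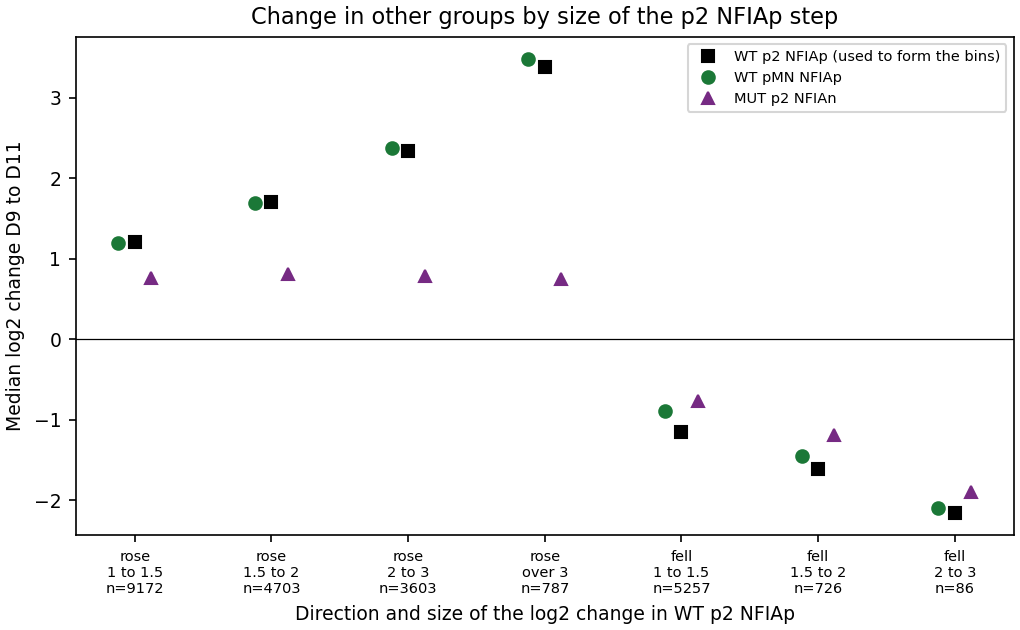
Median log2 change from day 9 to day 11 in WT p2 NFIAp (black squares), WT pMN NFIAp (green circles) and MUT p2 NFIAn (purple triangles) for intervals grouped by the direction and size of their change in WT p2 NFIAp, which the squares only restate. The pMN medians go from 1.19 to 3.48 over the rises while the MUT medians stay between 0.74 and 0.81.

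Taking both other groups, 6134 of the WT p2 rises (33.6%) also rose in pMN and in MUT p2, 8517 (46.6%) rose in pMN and were not called in MUT p2, 1200 (6.57%) rose in MUT p2 and were not called in pMN, and 2414 (13.2%) rose in neither. The intervals that rose in all 3 were the better read, with a median of 35.2 normalised reads on day 9 against 15.5 for those that rose in pMN and were not called in MUT. The latter had median changes of 1.62 in p2, 1.77 in pMN and 0.35 in MUT. Among intervals with a mean of at least 30 the share of rises that also rose in MUT was 52.1%, so these shares differ with the level of the intervals. Of the falls, 1606 (26.4%) fell in all 3 and 1294 (21.3%) in pMN without a call in MUT p2. A further 781 (12.9%) fell in MUT p2 without a call in pMN, and 2391 (39.4%) in neither. Over all intervals tested, 13% rose in pMN and 9.17% in MUT p2, and 5.58% and 6.31% fell. The share of all intervals in each joint class was not counted, so the classes are a description.

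The difference between the WT NFIAp and MUT NFIAn steps was called in 10736 intervals, 6.89% of those tested, of which 8857 had the higher change in WT and 1879 the lower. It fell to 5556 without MUT day 9 replicate 2 and to 6888 when only the groups compared were fitted. Higher changes in WT made up 82.5% of the calls with the scaling as deposited, 63.7% (6394 and 3651) with equal library totals and 68.8% (7729 and 3504) after quantile normalization. By edgeR they were 5992 and 2609.

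All 8 of the largest WT p2 rises were called for this difference and 4 of them also rose in MUT. They were chosen for the size of the WT change, which enters the difference, so these calls are no test. Interval_49651 had 0.95 and 3.72 normalised reads in MUT p2 on day 9 and 14.1, 13.4 and 10.1 on day 11. That is a change of 1.27, and the WT change exceeded it by 4.87 ± 0.50 (SE; limma adjusted p = 1.14e-10). Interval_141170 held 5.70 and 5.58 in MUT on day 9 and at most 3.02 in each MUT library on day 11. Interval_145071 and Interval_56483 changed by -0.13 and -0.10 in MUT and by 5.20 and 5.02 in WT. The highest MUT value among the 8 on day 11 was 44.3, in Interval_19365, where the WT libraries had 291 to 535.

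The 8 largest falls all fell in MUT and none was called for the difference. Their WT changes, of -3.21 to -2.44, were smaller in size than those of the 8 rises, so the 2 groups are not compared. Interval_47286 had 543 and 628 normalised reads in MUT p2 on day 9 and 61.3, 56.3 and 50.5 on day 11. Its change of -3.27 stood beside -3.21 in WT, and the difference of 0.06 had an SE of 0.44. Interval_92728 had 1397 and 1404, then 182, 163 and 167, and its WT change of -2.96 differed from that in MUT by 0.04 ± 0.25 (SE). Interval_140735 had 155 and 154, then 28.2, 29.6 and 22.0, a change of -2.34 beside -3.09 (difference -0.75 ± 0.42). Some falls did differ. Interval_9235 had 68.6 and 89.9 in WT on day 9 and 15.6, 10.4 and 9.89 on day 11, against 42.8 and 47.5, then 28.2, 13.4 and 22.9 in MUT. The WT change minus the MUT change was -1.35, a call that 11 alternatives removed. Interval_47174 had a difference of -1.62, lost under 5 alternatives, and was not called in MUT.

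Some intervals with a large WT rise also rose in MUT, although its libraries are NFIAn. Interval_35506 had 6.65 and 7.44 normalised reads in MUT on day 9 and 299.7, 258 and 178 on day 11, a change of 4.34 beside 4.09 in WT. Interval_101069 changed by 3.48 in MUT and 4.19 in WT. Interval_118950, which like Interval_35506 had fallen by the NFIAn fraction of day 9 in WT, had 12.4 and 14.9, then 12.1, 10.5 and 11.9 in MUT, and its WT change exceeded that in MUT by 4.25. Intervals with a similar course in WT thus differed in MUT.

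Changed intervals were spread over the numbering of the table. In 779 windows of 200 consecutive intervals the median change ran from -0.31 to 0.34. The interval after a risen one had also risen in 16.8% of cases, against 11.7% of all, and the interval after a fallen one had also fallen in 7.91%, against 3.9%. The longest runs were 7 rises and 6 falls. Within 3 long stretches of the numbering that shift between genotypes or replicates, 21855 intervals in all, 11.8% rose and 3.85% fell, against 11.7% and 3.91% elsewhere.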

How the data were processed

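The table deposited by the authors holds signal values: in every library, the reads of an interval over that library's size factor. Coordinates were of mm10 per the submitters' processing notes, and the aligner, peak caller and counting tool are not given in the sources used here. The smallest step between the values of a column is the worth of 1 read. Division by that step gave whole reads, within 0.01, for 100% of the values and so the depth of each library. After adding 5 and taking log2, the means of 26 groups were fitted in limma 3.58.1 (R 4.3.3) with a mean-variance trend. The fit held 70 libraries, without WT D9 p2 NFIAp replicate 2, and left 44 residual degrees of freedom. An interval was tested if 2 or more libraries reached a value of 10. An interval was called, and is said to have risen or fallen, at a Benjamini-Hochberg adjusted p under 0.05 over all intervals tested with a log2 change of 1 or more either way. Changes are on the log2(value + 5) scale, which understates those of weak intervals, and each ± is the SE of the fit.

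Named intervals were called ones with a mean over the 5 libraries at or above the median and no overlap between the days, 12882 rises and 1595 falls. From these came the 8 largest changes in each direction and, for each direction, the 2 largest that also changed in pMN or in MUT p2, that differed from either step, or that moved the opposite way, the same way or not at all between day 5 and day 9. Each was named once. The intervals and sets were chosen with earlier results of these data known. Sets chosen in the p2 step were followed in comparisons that share none of its libraries. Duplicate libraries were looked for within each day among the 5 libraries of the p2 step, and none was found. The other libraries were not checked for duplicates. Alternatives were pseudocounts of 1 and 20, no filter, a minimum mean of 30, equal library totals, quantile normalization, fitting just the groups compared, the replicate number as a block, edgeR 4.0.16 on the recovered reads, leaving out libraries in turn, and leaving out the stretches of intervals that shift between genotypes. The share of rises and falls found in the other groups was followed through the alternatives by a choice made after the data were seen. Figures were drawn with matplotlib 3.10.9.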

Additional observations from a re-analysis of the deposited data

Results flagged for a closer look

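The difference between 2 steps under the same contrast was itself tested, and 2 such tests passed in some intervals. The p2 NFIAp step differed from the pMN NFIAp step in 1504 intervals and from the MUT p2 step in 10736. Against pMN, the difference was 1.41 for Interval_21183, 1.62 for Interval_79937, -1.64 for Interval_90184 and -1.97 for Interval_70488, and each of the 4 lost its call under 9 to 12 alternatives. Against MUT p2, all 8 of the largest rises differed, by 4.87 for Interval_49651, 5.06 for Interval_22624, 5.94 for Interval_141170, 5.32 for Interval_145071, 3.78 for Interval_70379, 3.28 for Interval_19365, 5.12 for Interval_56483 and 3.62 for Interval_143923. Other differences from MUT p2 were 4.87 for Interval_21183, 2.41 for Interval_79937, 4.25 for Interval_118950 and 2.10 for Interval_138822 among the rises. Among the falls they were -2.01 for Interval_70488, -1.35 for Interval_9235 and -1.62 for Interval_47174, which lost their calls under 6, 11 and 5 alternatives. Genotype and NFIA fraction cannot be told apart in the differences from MUT. The named intervals were chosen for the size of the p2 change, which enters each of these differences.

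A library outside the comparison also stood out. In WT p2 NFIAp on day 9, the library labelled replicate 2 showed a median of 5.63, in log2(normalised reads + 5), over the intervals higher in pMN than in p2 on day 9, against 4.78 and 4.73 in replicates 1 and 3. Whether this library is an outlier of its group was not tested.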

How the results depend on the processing

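The day 9 group holds 2 libraries, and with either left out the other is assumed to vary like the rest. Depth limits weak intervals most.

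With a pseudocount of 20 the p2 step gave 12022 calls, the pMN step 15347 and the MUT step 10924, and with a minimum mean of 30 they gave 11633, 14425 and 13538. That minimum tests fewer intervals. It left 966 differences between p2 and pMN and 5503 between WT and MUT p2. A fit of only the groups compared left 18 and 6888. With the left-out library added, p2 and pMN differed in 686 intervals and the day 9 fractions in 5839. The cause of these shifts was not tested. The rises also called in pMN were 8934 with a pseudocount of 20 and 6766 with the minimum mean of 30, and those in MUT 3631 and 4342. The falls also called in pMN were 6141 with a pseudocount of 1, 644 with 20, 4565 with equal totals and 6704 by edgeR, and those in MUT 4611, 509 and 4942 with a pseudocount of 1, with 20 and by edgeR. As shares of each set they ranged less, from 67.5% to 83.5% of rises in pMN and from 32.9% to 52.1% in MUT. For falls the shares ran from 29.4% to 65.8% in pMN and from 29.9% to 55.5% in MUT.

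Leaving out 1 library at a time gave 18049 to 33869 calls for the p2 step, 27238 to 33631 for pMN, 16906 to 30143 for MUT, 672 to 2662 for p2 minus pMN and 5556 to 11658 for WT minus MUT. It gave 11218 to 15421 rises and 2375 to 3255 falls shared with pMN, and 4525 to 9381 rises and 1590 to 3304 falls shared with MUT.

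The check made did not settle whether replicate numbers pair the libraries. Day 9 and day 11 p2 share 2 numbers, with correlations of deviations of 0.16 and 0.31. Day 9 p2 and pMN NFIAp share 2, with 0.32 and 0.28, and day 11 p2 and pMN had 0.28, 0.07 and 0.24. Between day 9 and day 11, pMN NFIAp had 0.15, 0.01 and 0.12, and MUT p2 had 0.13 and 0.05. All are positive, though some are under 0.1. Day 9 p2 replicate 1 correlated at 0.18 with day 11 replicate 2, which has another number. The main fit used no pairing. With the replicate block across all libraries the p2 step gave 24387 calls, and with the replicate block within genotype 24231. No count under either block moved by over 1.5 times. Only values of named intervals that were called in the main fit were followed through the alternatives. Of these, 820 stayed called, 68 lost the call and 0 reversed. Whether values not called in the main fit would gain a call was not followed.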

Other observations

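The late step could not be formed in p0-p1, the population dorsal to p2, because none of the day 9 p0-p1 libraries analysed is NFIAp, so only levels are given. Over the intervals that rose in the p2 step, the WT p0-p1 NFIAp libraries of day 11 had medians of 5.57 to 6.05 in log2(normalised reads + 5), below the 6.25 to 6.69 of p2 and the 6.26 to 6.68 of pMN on that day. The WT p0-p1 NFIAn libraries of day 9 had 4.22 to 4.32. In MUT on day 11 the medians were 4.82 to 5.09 in p0-p1, 5.06 to 5.43 in p2 and 5.04 to 5.43 in pMN, so that no MUT library of day 11 reached the lowest WT library of that day. Over the intervals that fell, WT p0-p1 on day 11 had 4.22 to 4.36, p2 had 3.85 to 3.90 and pMN had 3.74 to 3.85. The WT p2 libraries of day 11 took part in choosing both sets and are extreme in them by choice. Nothing is therefore read from their distance to other groups. Between MUT and WT on day 11, genotype and NFIA fraction change together.

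Interval_70488 and Interval_118950 differed widely among the 3 libraries labelled WT D9 p2 NFIAp. The former had 33.8, 8.29 and 112 normalised reads in replicates 1, 2 and 3, and the latter 82.7, 9.33 and 27.2.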
